A study of Homo sapiens with 6 samples.

Results

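Semaphorins, plexins and neuropilins are a ligand and receptor system whose transcripts were compared here in SW620 cells with and without a hairpin against ECM1. SW620 is a human colorectal cancer line established from a lymph node metastasis. Members were chosen by gene symbol, and all 31 symbols that fit were found among the 20476 genes of the count table, namely 20 semaphorins of classes 3 to 7, 9 plexins and 2 neuropilins. A member was then selected on its counts, with at least 10 in 3 or more of the 6 libraries. This left 24 members, 15 semaphorins (called ligands here) and 9 plexins and neuropilins (called receptors), and all 24 were among the 12576 genes tested. Just inside the limit lay SEMA3G, with 8, 14 and 10 counts in the control libraries and 8, 14 and 24 in the knockdown libraries, and SEMA6B, with 27, 18 and 39 against 15, 6 and 6. SEMA6B reached 10 counts in all 3 control libraries and in 1 knockdown library, so it would have passed on the controls alone. Just outside lay PLXNC1, with 4, 6 and 4 control counts and 4, 7 and 2 knockdown counts.

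The first group, shNC, held 3 libraries of SW620 cells with a negative control hairpin. The second, shECM1, held 3 libraries of SW620 cells in which a hairpin stably lowers ECM1, the gene of extracellular matrix protein 1, so every library carries a hairpin. Whether the cells were clones or pools, and how many hairpins were used, is not given in the sources used here. The study asks about ECM1 and the chemokine CCL20. Its labels describe both total RNA extraction and a droplet single-cell kit that reads transcript 3′ ends, and each column of counts was taken as 1 library. Columns of the count table were matched to the groups by the letters and numbers in their names, an inference on which the sign of each difference depends, since with the letters exchanged all signs would turn.

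Semaphorins are secreted or membrane-bound proteins that share a sema domain and steer axons, vessels and epithelial cells, often by repulsion. Class 3 members are secreted and mostly bind a neuropilin, which holds a plexin of type A as the signalling partner. Classes 4 to 6 span the membrane, and SEMA7A is held by a lipid anchor. Plexins carry an intracellular domain that inactivates small GTPases of the Ras and Rap kind and so loosens adhesion and the actin cytoskeleton. In epithelial tumours the family is known for members that restrain growth, such as SEMA3B and SEMA3F, and members that aid invasion, such as SEMA4D with its receptor PLXNB1.

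Library totals ran from 9881720 to 16813951 counts. ECM1 stood at 38.8, 19.0 and 52.3 CPM (counts scaled to a common library size by TMM) in shNC replicates 1, 2 and 3 and at 14.8, 13.6 and 8.41 CPM in the shECM1 libraries. The groups did not overlap, but shNC replicate 2 had the lowest control level. On the first principal component, which held 58.1% of the variance, shNC replicate 2 lay at 8.64, nearer to the shECM1 libraries (16.6 to 23.3) than to the other controls (-41.3 and -25.2). Calls of edgeR are therefore also given without that library. Leaving out the control most like the knockdown libraries tends by itself to widen differences and to narrow the control spread. Calls without it are thus no independent support, and are to be read against the share over all genes. Of the 12 markers of colorectal epithelium, EPCAM had 5374 to 8966 counts per library and KRT8 57495 to 122009, while KRT20 had 9 to 21 and CDX1 0 or 1. The labels do not say whether replicates came from separate cultures. The spread that the p-values rest on, that between these libraries, may therefore be technical.

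Most detected members stood lower in the knockdown libraries, and none stood apart by the main test. The quasi-likelihood test of edgeR, after Benjamini-Hochberg adjustment, called 0 of the 24 members and 0% of the 12576 genes tested, with a smallest adjusted p of 0.0973. The log2 fold change, shECM1 minus shNC, was negative in 21 members and positive in 3, with a median of -0.44, against a median of 0.01 over all genes tested, of which 6110 were negative. At an unadjusted p under 0.05, 14 of 24 members were lower and 0 higher, where 14.2% of all genes tested were lower and 8.31% higher. The 14 were the ligand genes SEMA3B, SEMA3F, SEMA4B, SEMA4D, SEMA4F, SEMA6B and SEMA7A and the receptor genes NRP1, NRP2, PLXNA2, PLXNA3, PLXNB2, PLXNB3 and PLXND1. SEMA6B met the count limit through the control libraries, where it was higher, so its place among the 14 is no support. In 8 members every knockdown library lay below every control library, where this held for 13.2% of all genes tested, and in 0 members above, where it held for 11.2%. The counts are given per library and not per cell, so fewer cells expressing a gene and less RNA per cell cannot be told apart.

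DESeq2 called 5 members lower and 0 higher, out of the 20 to which it gave an adjusted p, where 5.08% of all genes with an adjusted p were lower and 1.03% higher. These 5 were SEMA3B, SEMA3F, SEMA7A, NRP2 and PLXNA3. Without shNC replicate 2, edgeR called 13 of the 24 lower and 0 higher, where it called 14.1% of 12730 genes lower and 9.73% higher. Those 13 were the 14 named above except PLXNB3 (adjusted p = 0.055), so SEMA6B is again among them. With shNC replicate 3 left out instead, edgeR called 0 members and 0 genes.

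**Figure D1:**
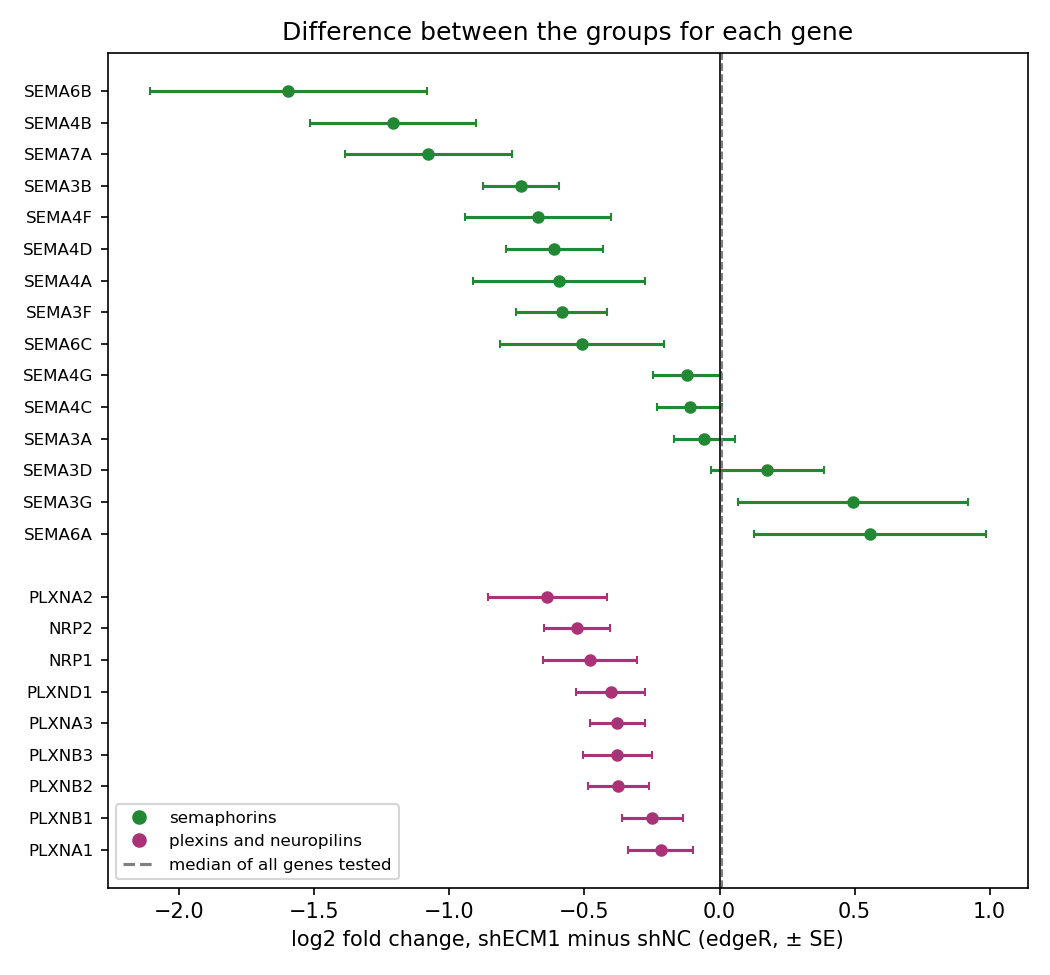
Log2 fold change of each of the 24 detected members, shECM1 minus shNC, from edgeR, with bars for 1 SE. The dashed line is the median of all genes tested (0.01), and 21 of the 24 points lie below 0, with the receptor genes between -0.64 and -0.22 and the ligand genes between -1.60 and 0.56.

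Promoters are shown for 3 of the ligands with the most negative fitted values and for NRP2, the neuropilin that DESeq2 called, beside SEMA4C, a ligand that was nearly level between the groups. They were picked after the values were seen. Promoter entries of RefSeq (GRCh38.p14) matched 27 of the 31 members and 20 of the 24 detected ones. NRP1, SEMA3A, SEMA6A and SEMA6B had no entry. Each line gives the 250 bases before the first listed start of a gene, 5′ to 3′ on the gene's strand, in lower case, with capitals for the GC box, GGGCGG on either strand. SEMA4B (chr15:90201080-90201329, plus strand), SEMA7A (chr15:74433959-74434208, minus strand), SEMA3B (chr3:50272869-50273118, plus strand) and NRP2 (chr2:205682251-205682500, plus strand) had lower group means in the knockdown libraries, although in SEMA4B and SEMA7A the groups overlapped. SEMA4C (chr2:96870081-96870330, minus strand) was nearly level. RefSeq lists 3 starts for SEMA4B, 2 for SEMA7A and 5 for SEMA3B, and which of them SW620 cells use was not measured. All of these windows except that of SEMA7A lie inside the span of the gene in GENCODE 29, since that annotation also has starts farther 5′.
SEMA4B: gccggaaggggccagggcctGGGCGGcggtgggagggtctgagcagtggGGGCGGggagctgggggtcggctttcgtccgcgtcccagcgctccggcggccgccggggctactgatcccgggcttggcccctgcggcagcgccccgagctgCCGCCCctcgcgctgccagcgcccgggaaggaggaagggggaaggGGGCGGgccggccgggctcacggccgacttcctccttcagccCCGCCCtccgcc
SEMA7A: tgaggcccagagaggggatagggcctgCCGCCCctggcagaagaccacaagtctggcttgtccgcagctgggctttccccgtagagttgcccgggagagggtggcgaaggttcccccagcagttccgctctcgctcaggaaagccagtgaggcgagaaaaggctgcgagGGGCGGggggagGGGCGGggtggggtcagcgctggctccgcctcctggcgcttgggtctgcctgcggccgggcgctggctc
SEMA3B: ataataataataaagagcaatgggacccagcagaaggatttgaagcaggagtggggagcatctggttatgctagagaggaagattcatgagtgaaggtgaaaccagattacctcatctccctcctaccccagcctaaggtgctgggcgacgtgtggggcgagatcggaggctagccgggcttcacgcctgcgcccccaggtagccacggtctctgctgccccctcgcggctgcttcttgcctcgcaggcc
NRP2: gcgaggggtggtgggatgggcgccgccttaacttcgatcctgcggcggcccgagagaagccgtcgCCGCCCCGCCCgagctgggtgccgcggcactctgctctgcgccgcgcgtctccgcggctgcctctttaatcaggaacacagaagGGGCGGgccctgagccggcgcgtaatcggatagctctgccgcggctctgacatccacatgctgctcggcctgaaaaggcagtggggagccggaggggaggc
SEMA4C: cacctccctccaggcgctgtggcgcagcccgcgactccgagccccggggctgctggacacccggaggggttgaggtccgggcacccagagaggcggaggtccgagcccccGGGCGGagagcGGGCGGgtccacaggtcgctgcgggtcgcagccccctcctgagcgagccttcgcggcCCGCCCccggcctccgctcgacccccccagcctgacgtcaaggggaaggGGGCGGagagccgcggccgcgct

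The windows of SEMA4B, SEMA7A, NRP2 and SEMA4C were rich in G and C (79.2%, 70.0%, 70.0% and 78.0%), and that of SEMA3B was less so (57.6%). The GC box, the site of SP-type factors, was found in 16 of the 20 members matched, against 42.3% of 27305 promoters. It occurred in SEMA4C, the nearly level gene, as it did in SEMA4B, SEMA7A and NRP2, and not in SEMA3B. The AP-1 motif TGANTCA was found in 0 of the 20 and in 6.6% of all promoters. The EGR motif GCGTGGGCG was found in 0 of the 20 and in 0.71% of all. The E-box, CACGTG, was found in SEMA4D alone and in 6.49% of all promoters. The TATA motif TATAAA (11.1% of all) and the ETS motif CCGGAAGT (3.64% of all) were found in 0 of the 20. All motifs were searched on both strands within the 250 bases, and an EGR match followed by G also holds a GC box. The matched members had a median GC content of 70.0% in the window, against 58.0% over all promoters. The promoters compared with were not restricted to genes detected in these libraries, as the members were.

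Levels were ranked per length, as TPM, a level scaled by exonic length and library, computed here from the counts. If reads came from transcript 3′ ends alone, this scale would understate long genes. PLXNB2, a receptor for SEMA4C and SEMA4G, had the highest mean over the 6 libraries (137 TPM, range 110.4 to 162), and SEMA3B followed (128 TPM, 85.2 to 183). Next came SEMA4B (71.0 TPM, 29.9 to 140.3) and PLXNB1 (66.6 TPM, 53.6 to 76.4). Neighbours in this order do not separate, since the range of each of the 4 meets that of the next. The range of PLXNB1 did lie below those of PLXNB2 and SEMA3B. The order also turned within groups, with SEMA3B (159 TPM) above PLXNB2 (153 TPM) in shNC and PLXNB1 (61.1 TPM) above SEMA4B (43.7 TPM) in shECM1. SEMA3F (48.8 TPM), PLXNB3 (42.7), SEMA4G (41.4), PLXND1 (31.0), PLXNA1 (27.7) and SEMA3A (25.6) formed the middle of the order. PLXNA3 (21.3 TPM), SEMA4C (20.8), NRP2 (20.1), SEMA7A (13.2) and NRP1 (8.45) came below them. The other 9 detected members had mean levels of 0.35 (SEMA6A) to 4.49 TPM (SEMA3D). Per length, therefore, the 3 plexins of type B, the membrane-spanning SEMA4B and the secreted SEMA3B and SEMA3F were among the most abundant members.

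**Figure D2:**
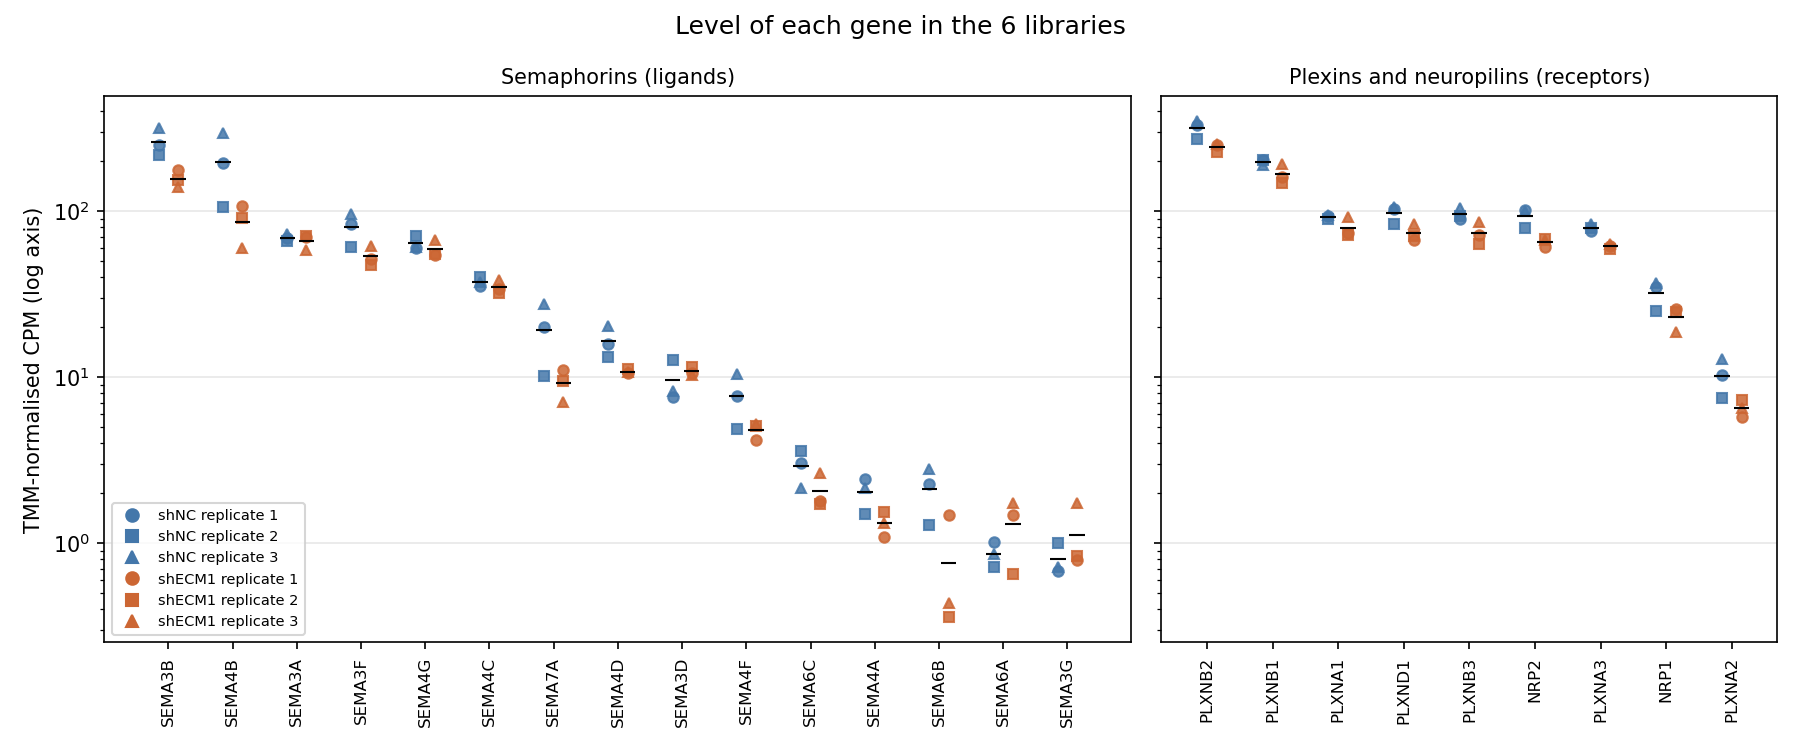
TMM-normalised CPM of each detected member in the 6 libraries, on a log axis, with the semaphorins on the left and the receptors on the right. Each point is a library, short lines are group means, and the square of shNC replicate 2 lies nearest the knockdown libraries for genes such as SEMA4B and SEMA7A.

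Of the secreted class 3 ligands, SEMA3B and SEMA3F were lower in the knockdown libraries while SEMA3A and SEMA3D were near level. SEMA3B (ENSG00000012171, chromosome 3, 50267558 to 50277546, plus strand, GRCh38), a candidate tumour suppressor, was at 249, 219 and 315 CPM in shNC replicates 1, 2 and 3 and at 177, 153 and 140.5 CPM in the shECM1 replicates. All knockdown libraries lay below all controls, and the 2 groups were 261 ± 49.2 and 157 ± 18.5 CPM (mean ± SD, n = 3 each). The log2 fold change was -0.74 ± 0.14 (SE), a 1.66-fold lower level (edgeR adjusted p = 0.0973, DESeq2 adjusted p = 0.000747). SEMA3F (ENSG00000001617), which binds NRP2 with preference, starts 5′ of SEMA3B on the same strand, with 78.5 kb between them. SEMA3F was at 83.6, 60.6 and 96.5 CPM in shNC and at 51.4, 47.4 and 61.7 CPM in shECM1. The groups touched, because shECM1 replicate 3 lay above shNC replicate 2. Its log2 fold change was -0.58 ± 0.17 (SE) (edgeR adjusted p = 0.111, DESeq2 adjusted p = 0.0274).

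SEMA3A, the founding repellent of the class and a ligand of NRP1, was at 68.7, 65.9 and 72.6 CPM in shNC and at 69.9, 71.1 and 58.4 CPM in shECM1. The groups overlapped, and SEMA3A had a log2 fold change of -0.06 ± 0.11 (SE). SEMA3D was at 7.61, 12.8 and 8.30 CPM against 10.6, 11.6 and 10.3 CPM, with a log2 fold change of 0.18 ± 0.21 (SE). In SEMA3D the control with the highest level was shNC replicate 2, the reverse of SEMA3B and SEMA3F. Without that library its log2 fold change was 0.46 (edgeR adjusted p = 0.0764). SEMA3G, with 8 to 24 counts per library, had a log2 fold change of 0.49 ± 0.43 (SE), which was 0.025 without shECM1 replicate 3. SEMA3C, a ligand of both neuropilins, had 1, 0 and 2 counts in shNC and 3, 4 and 3 in shECM1, too few to test. SEMA3E, the direct ligand of PLXND1, had 0 counts in every library, which allows a level of up to 0.179 to 0.298 CPM (3 counts per library, counting error only). Few counts in this table need not mean few transcripts, since CDC42, a GTPase that nearly all cells use, had only 0 to 7 counts per library.

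Class 4 ligands, which span the membrane, had negative log2 fold changes in all 6 detected members, though SEMA4C and SEMA4G turned positive with an offset for GC content (0.087 and 0.054). SEMA4B (ENSG00000185033, chromosome 15, 90160604 to 90229679, plus strand, GRCh38) was at 195, 106 and 294 CPM in shNC and at 107, 91.0 and 59.9 CPM in shECM1. Replicates 1 and 3 of shNC were high, and shNC replicate 2 lay within the knockdown range. The group values were 198 ± 94.0 and 85.9 ± 23.9 CPM (SD, n = 3 each), and the fitted level was 2.31-fold lower. The log2 fold change of -1.21 ± 0.31 (SE) was called by neither edgeR (adjusted p = 0.0973) nor DESeq2 (adjusted p = 0.0878). Without shNC replicate 2 it was -1.50 (edgeR adjusted p = 0.000608), and without shNC replicate 3 it was -0.81 (edgeR adjusted p = 0.289).

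SEMA4D, the ligand of PLXNB1, was at 15.9, 13.2 and 20.5 CPM in shNC and at 10.6, 11.1 and 10.7 CPM in shECM1. No knockdown library of SEMA4D reached a control library, and its log2 fold change was -0.61 ± 0.18 (SE) (edgeR adjusted p = 0.112). SEMA4F was at 7.70, 4.88 and 10.5 CPM against 4.17, 5.06 and 5.20 CPM (-0.67 ± 0.27 SE), and shNC replicate 2 lay among the knockdown libraries. Without that library SEMA4F was at -0.90 (edgeR adjusted p = 0.00997), and without shNC replicate 3 at -0.37 (edgeR adjusted p = 0.603). SEMA4A, known from immune cells, was low at 2.45, 1.51 and 2.15 CPM against 1.09, 1.55 and 1.32 CPM (-0.59 ± 0.32 SE). SEMA4C and SEMA4G, ligands of PLXNB2, did not show a difference of this size. SEMA4C was at 35.3, 40.2 and 37.5 CPM in shNC and at 34.0, 32.2 and 38.6 CPM in shECM1 (log2 fold change -0.11 ± 0.12 SE). SEMA4G was at 60.0, 71.0 and 61.1 CPM against 54.7, 54.9 and 67.2 CPM (-0.12 ± 0.13 SE). Of the exonic bases of SEMA4G, 22.3% overlap MRPL43 on the opposite strand. Whether counting used strand is not given in the sources used here, so reads of these 2 genes may be mixed. In both SEMA4C and SEMA4G, shNC replicate 2 was the highest of the 6 libraries.

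SEMA7A (ENSG00000138623, chromosome 15, 74409289 to 74433958, minus strand, GRCh38), the lipid-anchored ligand of PLXNC1 and of integrin beta-1, had libraries in an order close to that of SEMA4B. It was at 20.1, 10.1 and 27.7 CPM in shNC and at 11.0, 9.47 and 7.10 CPM in shECM1. As with SEMA4B, shNC replicate 2 lay inside the knockdown range. Its log2 fold change was -1.08 ± 0.31 (SE), a 2.11-fold lower level (edgeR adjusted p = 0.111, DESeq2 adjusted p = 0.0123). Without shNC replicate 2 edgeR gave -1.38 (adjusted p = 0.000798), and without shNC replicate 3 it gave -0.72 (adjusted p = 0.371). SEMA7A and SEMA4B lie 15.73 Mb apart on chromosome 15.

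The class 6 ligands, which signal through plexins of type A, were scarce. SEMA6B had the most negative fitted value of all members, -1.60 ± 0.51 (SE), at 2.28, 1.29 and 2.79 CPM in shNC and 1.49, 0.358 and 0.439 CPM in shECM1 (edgeR adjusted p = 0.125). It rests on 6 to 39 counts per library, and shECM1 replicate 1 lay above shNC replicate 2. SEMA6C was at 3.05, 3.59 and 2.15 CPM against 1.79, 1.73 and 2.63 CPM (-0.51 ± 0.30 SE), and at -0.32 without shNC replicate 2. SEMA6A, at 10 to 24 counts per library, had a log2 fold change of 0.56 ± 0.43 (SE), which was 0.92 without shECM1 replicate 2 and 0.235 without shECM1 replicate 3. SEMA5A and SEMA6D had 0 counts in every library. SEMA5B had 1, 0 and 1 counts in shNC and 0 in each shECM1 library.

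All 9 detected receptor genes had negative log2 fold changes, from -0.64 to -0.22, though PLXNA1 (0.041) and PLXNB1 (0.063) turned positive with a GC offset and without shNC replicate 2. Those of the ligands ran from -1.60 to 0.56. The median was -0.38 in the receptors and -0.58 in the ligands. The SE of some ligands was larger, up to 0.51, against at most 0.22 in the receptors. In other ligands, such as SEMA3A and SEMA4C, it lay within the receptor range. Members are not replicates of a condition, and the classes were not tested against each other. In 6 of the 9 receptors, and in 2 of the 15 ligands (SEMA3B and SEMA4D), the groups did not overlap, where 13.2% of all genes were lower without overlap. The ligand count is thus near the share over all genes.

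Among the plexins of type A, which signal for class 3 and class 6 semaphorins, PLXNA3 (ENSG00000130827) was at 76.2, 78.9 and 84.0 CPM in shNC and at 61.8, 59.1 and 63.1 CPM in shECM1. The libraries of each group were close together and the groups were apart, with SDs of 3.94 and 2.02 CPM. PLXNA3 had a log2 fold change of -0.38 ± 0.10 (SE), the smallest SE of all members (edgeR adjusted p = 0.105, DESeq2 adjusted p = 0.0408). PLXNA1 was at 93.1, 89.1 and 94.4 CPM against 74.0, 71.4 and 92.5 CPM (-0.22 ± 0.12 SE). Replicate 3 of shECM1 stood with the PLXNA1 controls. PLXNA2 was at 10.3, 7.47 and 12.8 CPM against 5.76, 7.27 and 6.51 CPM (-0.64 ± 0.22 SE, edgeR adjusted p = 0.137). PLXNA4 had 0 counts in the control libraries and 0, 1 and 1 in the knockdown libraries.

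Plexins of type B are the receptors of class 4 semaphorins and associate with the receptor tyrosine kinases MET and ERBB2. PLXNB2 (ENSG00000196576) was at 329, 273 and 348 CPM in shNC and at 249.9, 228 and 255 CPM in shECM1. No knockdown library reached the lowest control, and the log2 fold change was -0.37 ± 0.11 (SE) (edgeR adjusted p = 0.115, DESeq2 adjusted p = 0.0554). PLXNB1, the receptor of SEMA4D, was at 202, 203 and 191 CPM against 161, 149 and 193 CPM, and the groups met at shECM1 replicate 3 (-0.25 ± 0.11 SE). PLXNB3, the receptor of SEMA5A, was at 89.5, 93.9 and 104.1 CPM against 71.9, 63.6 and 85.9 CPM, with no overlap (-0.38 ± 0.13 SE, edgeR adjusted p = 0.133). Of its exonic bases, 20.4% are shared with SRPK3 on the same strand, so its count is uncertain. PLXND1, the receptor of SEMA3E, was at 102.9, 83.24 and 106 CPM in shNC and at 66.9, 71.0 and 83.19 CPM in shECM1. Its groups were separated by less than 0.1 CPM, between shNC replicate 2 and shECM1 replicate 3 (-0.40 ± 0.13 SE, edgeR adjusted p = 0.124). PLXNC1, the receptor of SEMA7A, had 2 to 7 counts per library in all 6 libraries.

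The neuropilins, co-receptors for class 3 semaphorins and for vascular endothelial growth factors, had log2 fold changes close to each other. NRP2 (ENSG00000118257, chromosome 2, 205681990 to 205798133, plus strand, GRCh38) was at 101.3, 78.9 and 100.9 CPM in shNC and at 60.5, 67.6 and 66.7 CPM in shECM1. Every knockdown library was below every control, at 93.7 ± 12.8 against 64.9 ± 3.90 CPM (SD, n = 3 each). The log2 fold change was -0.53 ± 0.12 (SE), a 1.44-fold lower level (edgeR adjusted p = 0.0973, DESeq2 adjusted p = 0.00991). NRP1 was at 34.8, 24.9 and 36.7 CPM against 25.8, 24.6 and 18.8 CPM (-0.48 ± 0.17 SE, edgeR adjusted p = 0.15). In NRP1, shNC replicate 2 lay within the range of the knockdown libraries. Without that library edgeR gave NRP1 -0.62 (adjusted p = 0.0113) and NRP2 -0.62 (adjusted p = 0.00163).

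The make-up of the semaphorin transcript pool, taken as shares of summed CPM, also differed by library. SEMA3B held 33.1%, 35.8% and 33.1% of the pool in shNC and 33.0%, 31.1% and 30.0% in shECM1. SEMA4B held 26.0%, 17.3% and 30.8% in shNC and 19.9%, 18.5% and 12.8% in shECM1. SEMA3A, nearly level in CPM, took 9.13%, 10.8% and 7.62% of the pool in shNC and 13.0%, 14.4% and 12.5% in shECM1. The share of SEMA4B in shNC replicate 2 lay within the knockdown range, whereas that of SEMA3A lay below it. Summed over all semaphorins, the level was 753, 612 and 953 CPM in shNC and 537, 493 and 468 CPM in shECM1, with no overlap. Summed over all receptors it was 1040, 933 and 1078 CPM in shNC and 778, 742 and 865 CPM in shECM1, again with no overlap. The ratio of the 2 sums was 0.724, 0.656 and 0.883 in shNC and 0.690, 0.664 and 0.541 in shECM1, and these ranges overlapped. Within the receptors the shares were steadier, with PLXNB2 at 29.3% to 32.2% in shNC and 29.5% to 32.1% in shECM1.

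**Figure D3:**
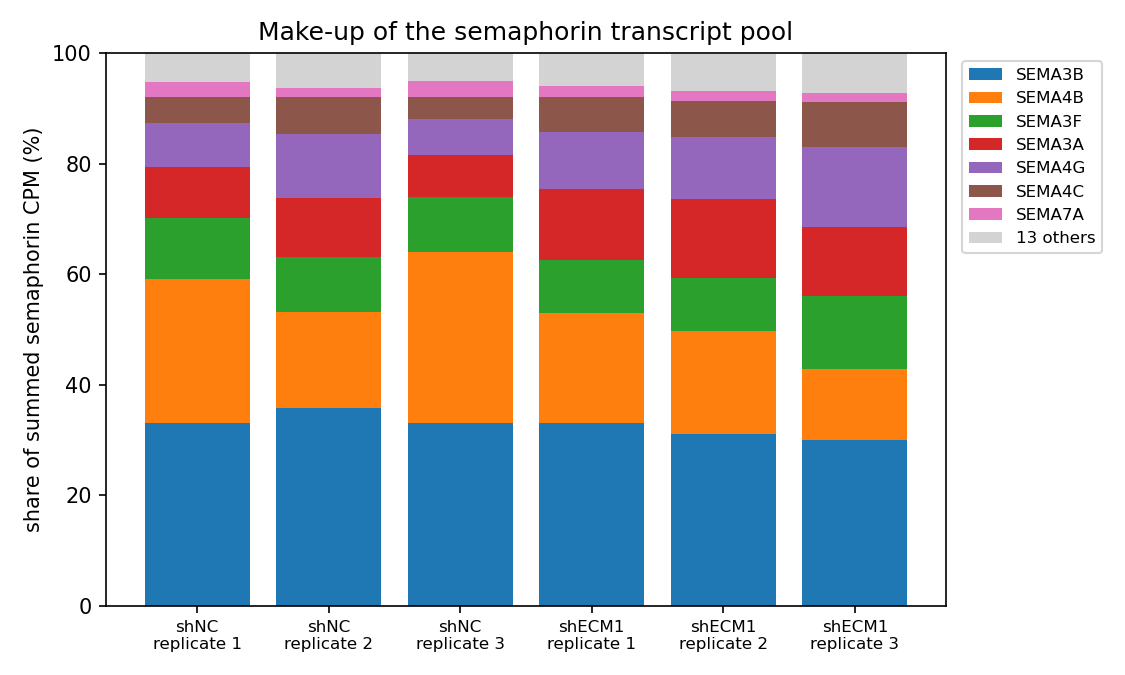
Share of the summed semaphorin CPM held by the 7 named genes and by the 13 others together, in each library. The SEMA4B share is largest in shNC replicates 1 and 3 (26.0% and 30.8%) and smallest in shECM1 replicate 3 (12.8%), while the SEMA3A share is above 12% in each shECM1 library and below 11% in each shNC library.

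GC content moved with the difference between the groups across all genes. With the tested genes in 5 bins of near-equal size by GC content of the longest transcript, the median log2 fold change was 0.14 in the bin of lowest GC content (30.2% to 41.0%) and -0.20 in the highest (58.7% to 75.8%). The detected members were rich in G and C, with a median of 58.8% in the ligands and 61.6% in the receptors, against 49.0% over all genes tested. The near-level SEMA3A and SEMA3D had the lowest GC contents, 36.7% and 34.9%, and SEMA6B the highest, 67.7%. With a per-library GC trend as an offset, the median was -0.34 in the ligands and -0.16 in the receptors. This offset takes out any group difference that moves with GC content, whatever its source. At an unadjusted p under 0.05, 6 ligands and 4 receptors were then lower and 0 members higher, where 11.0% of all genes tested were lower. The 6 ligands include SEMA6B, which met the count limit through the control libraries. PLXNB2, PLXNB3 and PLXND1 were at -0.13, -0.13 and -0.16 with the offset, and no longer passed. PLXNA1 and PLXNB1 were at -0.004 and -0.03. SEMA4B (-0.94), SEMA7A (-0.84), SEMA3B (-0.46), NRP1 (-0.54) and NRP2 (-0.49) kept an unadjusted p under 0.05. With the offset and without shNC replicate 2, 10 members were called lower by edgeR, where 12.6% of genes were. One of them was SEMA3A (-0.27, adjusted p = 0.0367), which was near level without the offset and at -0.20 with the offset and all libraries. The part of GC content in the unadjusted differences was not tested further.

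**Figure D4:**
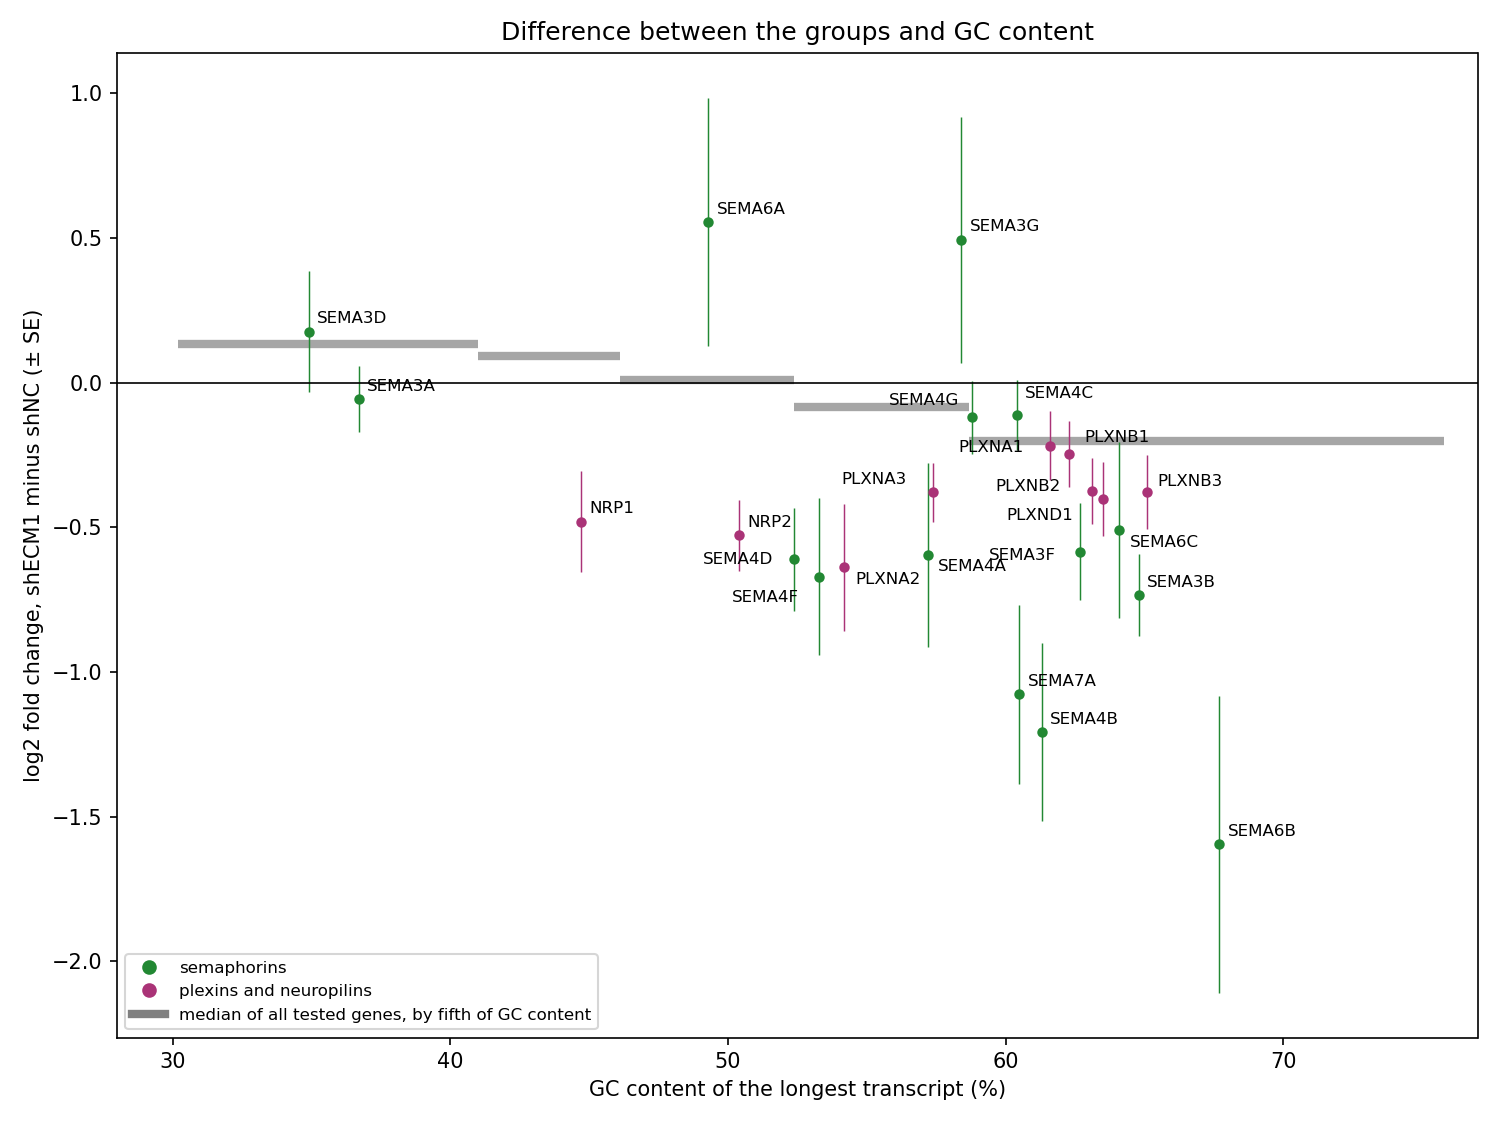
Log2 fold change of each detected member against the GC content of its longest transcript, with bars for 1 SE. Grey bars are the median over all tested genes in each of 5 bins of GC content, from 0.14 down to -0.20. SEMA4B and SEMA7A lie well below the bar at their GC content. SEMA6B does too, but it met the count limit through the control libraries and has an SE of 0.51.

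Other genes of the pathway were taken from lists chosen by role, and edgeR called 0 genes in each of them with all 6 libraries. Each count is to be read against all genes tested, of which 14.2% were lower and 8.31% higher at an unadjusted p under 0.05, 5.08% were called lower by DESeq2, and 14.1% were called lower by edgeR without shNC replicate 2. Abundance within a list is by CPM. Of 20 other receptors and co-receptors 12 were tested, and 11 were negative with a median of -0.41. Of these, 8 were lower and 0 higher at an unadjusted p under 0.05, and edgeR called 6 lower without shNC replicate 2. DESeq2 called 3 lower. They were MST1R, the receptor of macrophage-stimulating protein and a partner of plexins of type B (230 ± 34.4 against 157 ± 10.6 CPM, log2 fold change -0.55 ± 0.12 SE), the adhesion molecule L1CAM (91.1 ± 14.4 against 66.8 ± 1.37 CPM, -0.45 ± 0.13 SE) and the ephrin receptor EPHA2 (-0.77 ± 0.20 SE). ITGB1, the integrin partner of SEMA7A and the most abundant gene of the list, was at 867 ± 95.2 and 772 ± 118 CPM (-0.17 ± 0.13 SE). KDR, the main signalling receptor for vascular endothelial growth factor beside neuropilins, had 0 counts in every library.

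Of 9 other neuropilin ligands 4 were tested, and all 4 were negative, with a median of -0.54. Of these, 3 were lower and 0 higher at an unadjusted p under 0.05, and the same 3 were called lower by edgeR without shNC replicate 2. VEGFA was at 328, 296 and 331 CPM in shNC and at 257, 245 and 283 CPM in shECM1 (-0.28 ± 0.10 SE, edgeR adjusted p = 0.148). DESeq2 called TGFB1 (-0.80 ± 0.21 SE) and PDGFB (-0.91 ± 0.23 SE) lower. Both genes and VEGFA had groups that did not overlap, where 13.2% of all genes tested were lower without overlap.

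Among the small GTPases and their regulators at plexins, 10 of the 18 tested were negative and 8 positive, with a median of -0.06, close to that of all genes. Unadjusted p was under 0.05 in 3 of them, all lower, a share near the 14.2% of all genes. Without shNC replicate 2 edgeR called 4 of the 18 lower. It also called RND2 (-2.43, adjusted p = 0.0154), which was not among the genes tested with all 6 libraries. DESeq2 called the 3 genes with an unadjusted edgeR p under 0.05. These were RND1, a GTPase that binds plexins (10.2 ± 5.70 against 4.63 ± 1.06 CPM, log2 fold change -1.13 ± 0.36 SE), RRAS, the R-Ras GTPase that plexins inactivate (43.5 ± 18.5 against 21.3 ± 4.16 CPM, -1.03 ± 0.27 SE), and SH3BP1, a GTPase-activating protein known as a partner of PLXND1 (-1.05 ± 0.26 SE). In RRAS, shNC replicate 2 stood at 25.1 CPM, just above the highest knockdown library at 24.7. RAC1 and ARHGDIA, the most abundant of the list, were at -0.09 and -0.06.

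Of 24 cytoskeletal effectors 21 were tested, with 16 negative and a median of -0.11. At an unadjusted p under 0.05, 7 were lower and 0 higher, and the same 7 were called lower by edgeR without shNC replicate 2. MICAL1, a monooxygenase that disassembles actin downstream of plexins, was at 85.6, 70.2 and 110.4 CPM in shNC and at 57.8, 52.7 and 49.6 CPM in shECM1. It had groups that did not overlap and a log2 fold change of -0.74 ± 0.16 (SE), and DESeq2 called it lower (adjusted p = 0.00184). DESeq2 also called MICAL2 (-0.64 ± 0.17 SE) and CRMP1 (-0.62 ± 0.16 SE), a mediator of the response to SEMA3A. FYN and CFL1, cofilin, were near level at -0.10 and -0.11. Of the 8 proteases that cleave semaphorins or plexins 7 were tested, with 6 negative, a median of -0.25, 1 lower at an unadjusted p under 0.05, a share near that of all genes, and 0 called by DESeq2. Without shNC replicate 2 edgeR called 2 proteases lower. ADAM17 and PCSK7, the most abundant of them by CPM, were at -0.25 and -0.10.

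Many markers of other cells that use this system in tissue had few or 0 counts, but not all. SYT1 had 829 to 1320 counts per library, COL1A1 98 to 301 and LYZ 49 to 221. The last 2 ranges meet that of SEMA4D, a detected member (107 to 286). Among 10 endothelial markers, KDR and EMCN had 0 counts in every library, and the summed level of the list was 13.1 to 17.5 CPM in shNC and 9.33 to 10.1 CPM in shECM1. VWF (7.83 against 6.12 CPM) and PECAM1 (2.59 against 2.34 CPM) were its most abundant genes. Among 10 immune markers, PTPRC, CD3E, CD2 and MS4A1 had 0 counts, and the sum was 7.76 to 18.8 CPM in shNC and 6.75 to 7.98 CPM in shECM1, most of it from LYZ (10.9 against 5.57 CPM) and CSF1R (2.19 against 1.54 CPM). Among 10 fibroblast markers, PDGFRA, COL3A1, FAP and POSTN had 0 counts. The fibroblast sum was 23.6 to 35.5 CPM in shNC and 16.7 to 21.0 CPM in shECM1, mostly COL1A1 (17.6 against 8.38 CPM, lower by DESeq2 with an adjusted p of 0.000837) and LUM (10.8 against 9.23 CPM). Among 10 neural and glial markers, SNAP25 had 0 counts in every library. The neural sum was 83.5 to 95.5 CPM in shNC and 88.4 to 97.3 CPM in shECM1, mostly SYT1 (73.4 against 78.2 CPM), followed by MBP (8.43 against 9.17 CPM). The epithelial list, led by KRT8 (7441 against 6183 CPM) and KRT18 (4004 against 3267 CPM), summed to 12230 to 18050 CPM in shNC and 11880 to 13230 CPM in shECM1, and DESeq2 called CEACAM5 lower. Without shNC replicate 2 edgeR called 5 of the 10 tested epithelial markers lower, and 1 tested marker lower in each of the other lists, among them LYZ (-1.29, adjusted p = 0.00128). In that fit edgeR also called the endothelial marker TIE1 (-2.475, adjusted p = 0.00157), which was not among the genes tested with all 6 libraries. The part of these markers in the results for semaphorins and their receptors was not tested.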

How the data were processed

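Gene expression was measured in 3 shNC and 3 shECM1 libraries of SW620 cells. Per the file headers, the authors deposited raw counts, 1 whole number per gene and library, and 0 of the 20476 rows named no gene. The tools named are Seurat, DESeq2, featureCounts, STAR and fastp, and the builds GRCh38 and hg38, per the submitters' processing notes. What each did, its version and any use of strand: not given in the sources used here. Both RNA extraction and droplet libraries are described, per the labels' protocols. Symbols were found for 20462 identifiers, and GENCODE release 29 gave exonic length and GC content for 20244. Per-length levels assume reads along whole transcripts.

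The counts were tested with edgeR 4.0.16 under R 4.3.3. The filterByExpr function chose the genes, which were scaled by TMM and compared with the quasi-likelihood test without covariates, with Benjamini-Hochberg adjustment over the 12576 genes tested and a threshold of 0.05. Levels are TMM-normalised CPM. An SE is the size of the log2 fold change over the root of F. Alternatives used other scalings and filters, DESeq2 1.42.0, limma-voom 3.58.1, the replicate number as a block, a GC offset, and each library left out. For the GC offset, log2 CPM less the gene's mean over the libraries was fitted on GC content. The curve was a loess (span 0.5) in each library. Such an offset also takes out any difference between the groups that moves with GC content. The robust and non-legacy fits, and the GC offset without shNC replicate 2, were chosen after the data were seen. Members, lists and tests were chosen with earlier results of these data known, so no list is independent evidence. Every detected member is named, and from each list the 2 most abundant tested genes and those called by DESeq2; markers and undetected genes are named beside these. The edgeR procedure was also run on simulated counts, with independent libraries and the same dispersion for all genes. These held no library like shNC replicate 2, so that run does not show how the test performs on these data.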

Additional observations from a re-analysis of the deposited data

How the results depend on the processing

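The count of members called by edgeR, 0 in the main analysis, was 5 with no count filter, 5 with DESeq2, 0 to 13 when 1 library was left out (13 without shNC replicate 2 and 0 without each of the others), 14 with DESeq2 without shNC replicate 2 and 10 with the GC offset without that library. Over all genes the same settings gave 505, 713, 0 to 3037, 2680 and 3360 calls, against 0. Members at an unadjusted p under 0.05 numbered 14, and 7 with the GC offset and replicate block together. Over all genes 2827 passed at that level, and 1433 (without shNC replicate 3) to 4748 (without shNC replicate 2) when 1 library was left out. The counts were 1522 without shNC replicate 1, 1716 without shECM1 replicate 2 and 5101 with the GC offset without shNC replicate 2. The GC offset gave 1383 lower and 1435 higher genes at that level, against 1782 and 1045. The ligand median of -0.58 was -0.34 with the GC offset, -0.33 with the offset and block, -0.74 (without shNC replicate 2) to -0.42 (without shNC replicate 3) over libraries left out, and -0.745 with DESeq2 without shNC replicate 2. The receptor median of -0.38 was -0.157 with the offset, -0.156 with the offset and block, -0.165 with the offset without shNC replicate 2, and -0.46 to -0.33 over libraries left out. The sign turned for SEMA4C (0.087, 0.093 and 0.21) and SEMA4G (0.054, 0.063 and 0.20) with the GC offset, the offset and block, and the offset without shNC replicate 2. It also turned for PLXNA1 (0.041) and PLXNB1 (0.063) with the last of these, and for SEMA3A without shECM1 replicate 3, within a range over libraries left out of -0.105 to 0.031. Among plexins, PLXNA1 was at -0.144 and PLXNB1 at -0.165 without shECM1 replicate 2, and PLXNA1 at -0.343 without shECM1 replicate 3. The cause of these changes was not tested. As a replicate block the shared numbers left 0 members called and 14 at an unadjusted p under 0.05, with 2414 genes at that level. The deviations of same-numbered libraries from their group means had correlations of -0.07, -0.05 and -0.18, which gave no sign of pairing. With 3 libraries per group this check cannot exclude it. Genes under about 10 counts per library, among them SEMA3C, SEMA5B, PLXNA4 and PLXNC1, cannot be compared at this depth.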

Other observations

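Other guidance families of axons and epithelia were measured beside the semaphorin system. Of 20 slit, robo, netrin and repulsive guidance genes 9 were tested, with 8 negative and a median log2 fold change of -0.15, against -0.44 in the detected semaphorins, plexins and neuropilins. The difference between these families was not tested, and neither median takes GC content into account. With the GC offset the median was -0.34 in the ligands and -0.16 in the receptors. That of the other guidance genes with the offset is not given here. ROBO1, a slit receptor, was the most abundant, with control libraries at 149 ± 13.7 CPM and knockdown libraries at 138 ± 10.9 CPM (log2 fold change -0.11 ± 0.11 SE). UNC5B, a netrin receptor, stood at 67.9, 58.8 and 76.4 CPM in the control libraries and at 50.1, 53.4 and 42.7 CPM in the knockdown libraries, with no overlap (-0.47 ± 0.13 SE). It was the 1 gene of the list that DESeq2 called (adjusted p = 0.0371), where 5.08% of all genes were called lower. Without shNC replicate 2 edgeR called it alone (adjusted p = 0.00818, against 0.108 with all libraries), where 14.1% of all genes were called lower. At an unadjusted p under 0.05, 2 of the 9 were lower and 0 higher, where 14.2% of all genes were lower. In 2 of the 9 the groups did not overlap, both lower, where this held for 13.2% of all genes. Such small counts do not set the list apart.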
